A study of Homo sapiens with 18 samples.

Results

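ID proteins and the feedback genes of SMAD signaling were followed across 6 groups of arrays in 2 leukemia cell lines exposed to graphene oxide. The set was defined by name and holds 9 genes: ID1, ID2, ID3, ID4, SMAD6, SMAD7, SMAD1, SMAD5 and BAMBI. All probes carrying 1 of these symbols were taken, 15 probes of the 47217 on the HumanHT-12 v4 array, which measures transcripts by hybridization of labelled cRNA to beads. The genes had been proposed with results of these data in view, among them the low ID1 and ID3 values of treated cells. Their changes are therefore given as a description, without p-values, and nothing is supported by them.

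Cells labelled Jurkat, a line known to derive from leukemic T lymphocytes, and cells labelled THP1, a line known to derive from leukemic monocytes, were each exposed for 24 h to GONH2 (graphene oxide carrying amino groups) or to GO (plain graphene oxide), both at 50 µg/ml, or were left untreated as CTRL. Each of the 6 groups had 3 arrays, named biological replicates by the labels, 18 arrays in all. No other agent or genetic change separates the groups, and each cell type is represented by 1 line. RNA came from whole cultures, so fewer cells of a type and less RNA per cell cannot be told apart.

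ID proteins are helix-loop-helix proteins without the basic region that contacts DNA. They pair with E proteins such as TCF3 and TCF12 and keep them off their target genes, and they are known for holding back the maturation of lymphoid and myeloid cells. Their genes are classical targets of bone morphogenetic proteins (BMPs). BMP receptors phosphorylate SMAD1, SMAD5 and SMAD9, which enter the nucleus with SMAD4 and switch on ID genes together with their own brakes. These brakes are SMAD6 and SMAD7, which block the receptors, and BAMBI, a membrane protein shaped like a receptor without the kinase domain.

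A probe was counted as detected on an array when its detection p-value, the comparison with the negative control beads, was under 0.01. Between 15761 and 17809 probes were detected per array, median signals ran from 103 to 150, and the lowest correlation within a group was 0.987. Values below are log2 intensities after background correction and quantile normalization, and a gene is "called" when the limma fit across all 19455 tested probes gave p under 0.001 and an adjusted p under 0.05. Tested probes were those detected on at least 3 of the 18 arrays, which held for 11 of the 15 probes and 7 of the 9 genes. ID4 and SMAD1 were not tested. A probe such as that of ID3 passed only through the groups in which it was high. The comparisons rest on the labels, and 2 points touch these. In the portion of the study's supplementary gene lists at hand, the treated means listed for GO in monocytes were those of the arrays labelled GONH2 for every gene, and those of the arrays labelled GO for none, whereas the T-cell means for GO were those of the Jurkat arrays labelled GO. The means listed for GONH2 matched neither treated group of either line. The other means in those lists matched THP1 CTRL for 100% of the genes and Jurkat CTRL for 0.258%. The Jurkat GONH2 list could therefore not be checked in this way. Because of the monocyte means listed for GO, the THP1 groups are called labelled GO and labelled GONH2. An exchange of these 2 labels would exchange their values below. The other point is the cell type. Of 18 T-cell markers measured, 6 were detected on all 3 Jurkat CTRL arrays and 1 on all 3 THP1 CTRL arrays. CD3E and CD3G were detected on none of either. CD3D (mean 7.86), BCL11B (6.12) and CD247 (5.67) were detected on all 3 Jurkat CTRL arrays and on no THP1 CTRL array. Of 19 myeloid markers, 15 were detected on all 3 Jurkat CTRL arrays and 16 on all 3 THP1 CTRL arrays. The granule protease genes ELANE, CTSG and PRTN3 averaged 13.63, 13.44 and 13.09 in Jurkat CTRL, against 14.52, 14.45 and 13.80 in THP1 CTRL. LYZ averaged 8.97 in Jurkat CTRL against 11.82 in THP1 CTRL, and CD36 was detected on no Jurkat CTRL array and on all 3 THP1 CTRL arrays. The line label of the Jurkat arrays is therefore in doubt and was not settled here, and Jurkat below means the label only. The summed level of the myeloid markers was 41900 to 43800 in Jurkat GONH2, 70000 to 78000 in Jurkat GO and 46800 to 49700 in Jurkat CTRL. In THP1 it was 105000 to 108000 on arrays labelled GONH2, 58500 to 64500 on arrays labelled GO and 84700 to 91200 in CTRL. The sum is of linear levels and rests largely on the brightest genes, while single markers went both ways. LYZ averaged 8.29 in Jurkat GO against 8.97 in CTRL, and 11.27 on THP1 arrays labelled GONH2 against 11.82 in CTRL. ELANE averaged 14.35 in Jurkat GO against 13.63, and 14.60 on THP1 arrays labelled GONH2 against 14.52. The part of the summed level in the results below was not tested.

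The promoters of the 3 ID genes that were detected, and that of SMAD6, are shown because ID1 and ID3 were lowest in the same groups, in which SMAD6 was not called against CTRL. Sequences are from RefSeq (GRCh38.p14) and run from 250 bases before the transcription start to 50 bases after it, in the direction of the gene. Capitals mark the letters of 5 motifs searched on both strands: GTCTAGAC, the palindrome bound by SMAD proteins; GGCGCC, a GC-rich element known from BMP-responsive genes; CAGAC, the SMAD box; CCAAT, the CCAAT box; and TATAAA, the TATA box.
ID1, chr20:31605039-31605338, plus strand: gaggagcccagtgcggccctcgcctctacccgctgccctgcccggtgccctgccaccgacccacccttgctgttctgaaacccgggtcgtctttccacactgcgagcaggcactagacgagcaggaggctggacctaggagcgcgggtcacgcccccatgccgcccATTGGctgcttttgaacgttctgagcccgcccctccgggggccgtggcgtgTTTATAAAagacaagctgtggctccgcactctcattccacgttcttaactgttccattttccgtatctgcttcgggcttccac
ID2, chr2:8681806-8682105, plus strand: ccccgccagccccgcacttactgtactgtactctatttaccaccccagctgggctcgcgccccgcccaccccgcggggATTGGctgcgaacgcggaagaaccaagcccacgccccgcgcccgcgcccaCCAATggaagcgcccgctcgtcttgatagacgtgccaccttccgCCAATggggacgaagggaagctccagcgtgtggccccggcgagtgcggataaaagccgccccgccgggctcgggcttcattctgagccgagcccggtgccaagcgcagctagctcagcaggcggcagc
ID3, chr1:23559452-23559751, minus strand: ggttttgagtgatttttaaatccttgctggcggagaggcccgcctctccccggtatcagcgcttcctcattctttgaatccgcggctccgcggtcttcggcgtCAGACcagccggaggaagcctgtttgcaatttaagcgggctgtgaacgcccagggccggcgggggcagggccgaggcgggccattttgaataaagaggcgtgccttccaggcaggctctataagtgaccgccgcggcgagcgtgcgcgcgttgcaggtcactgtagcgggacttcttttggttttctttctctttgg
SMAD6, chr15:66701986-66702285, plus strand: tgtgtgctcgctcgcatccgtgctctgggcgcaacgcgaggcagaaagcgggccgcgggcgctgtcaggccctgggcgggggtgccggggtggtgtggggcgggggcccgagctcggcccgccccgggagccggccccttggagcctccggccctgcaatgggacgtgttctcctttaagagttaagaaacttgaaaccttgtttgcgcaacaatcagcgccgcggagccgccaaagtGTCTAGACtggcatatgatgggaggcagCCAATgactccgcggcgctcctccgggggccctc
ID1 held 2 overlapping TATAAA matches, on opposite strands, 33 and 31 bases before the start, and 1 CCAAT match at 84 bases. ID2 held 3 CCAAT matches and no other, and ID3 held 1 CAGAC match, 147 bases before the start. SMAD6 was the 1 member whose window held GTCTAGAC, 12 bases before the start, together with 1 CCAAT match. Among 35116 promoter windows of this length, GTCTAGAC was found in 0.202%, GGCGCC in 19.2%, CAGAC in 45.3%, CCAAT in 34.6% and TATAAA in 11.5%. These matches describe letters in the window and were not tested for binding. Sequence farther from the start was not searched, so a motif without a match here may lie outside the window.

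ID1, on chromosome 20 (31605289 to 31606510, a span of 1222 bases), was lower after both materials in both lines, by amounts that differed widely. Its brighter probe (ILMN_1664861) stood at 6.32, 5.94 and 6.17 on the Jurkat GO arrays, against 10.62, 10.58 and 10.49 on the Jurkat CTRL arrays. Every GO array lay far below every CTRL array, and every probe signal in GO was still detected. The difference was -4.42 (SE 0.12), a 21.4-fold decrease, and it was -3.26 with the deposited normalized intensities. On Jurkat GONH2 arrays the probe read 9.82, 9.72 and 9.75, and the difference from CTRL was -0.80 (SE 0.09), without overlap of the groups. Unprocessed signals showed the same order, with 994 ± 129 in GONH2, 150 ± 24.7 in GO and 1750 ± 111 in CTRL (SD, n = 3). Groups without overlap were common: of all 11130 tested genes, 23.8% lay below CTRL in this way in Jurkat GO and 14.9% in Jurkat GONH2.

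In THP1 cells the order of the treatments for ID1 was the opposite by the labels. The probe read 5.01, 4.79 and 5.46 on arrays labelled GONH2, where it was detected on 1 of 3, and 7.45, 7.36 and 7.46 on arrays labelled GO. THP1 CTRL arrays read 8.47, 8.54 and 8.49, so that none of the 3 groups overlapped another. Of all tested genes, 24.6% lay below CTRL without overlap on arrays labelled GONH2, and 24.6% on arrays labelled GO. Differences from CTRL were -3.41 (SE 0.18) for arrays labelled GONH2 and -1.07 (SE 0.10) for arrays labelled GO. Arrays labelled GONH2 were at the edge of background, with detection p-values of 0.0636, 0.129 and 0.0039, so the size of -3.41 and of every value built on these arrays depends on the background correction. With the deposited normalized intensities it was -1.79. Set directly against GO, GONH2 was 3.62 higher (SE 0.13) in Jurkat and -2.34 (SE 0.17) on the THP1 arrays as labelled. In these comparisons 22.6% of all tested genes lay higher without overlap in Jurkat, and 27.4% lower in THP1. Ordered by level, the groups ran from Jurkat CTRL through Jurkat GONH2, THP1 CTRL, THP1 GO and Jurkat GO to THP1 GONH2, with no overlap between neighbours, the last place resting on arrays of which 1 of 3 was detected.

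The second ID1 probe (ILMN_1665832) was dimmer and followed the first at r = 0.937 over the 18 arrays, which share treatments and lines. It was detected on no Jurkat GO array and on all 3 Jurkat CTRL arrays, at least 4.97-fold lower. This bound sets the CTRL mean against the lowest signal counted as detected on each GO array or the probe's own value, whichever is higher, and the same rule gives each bound below. It was not detected on THP1 arrays labelled GONH2 either, at least 1.17-fold lower than in CTRL, where 2 of 3 arrays detected it. With GONH2 in Jurkat (-0.48, SE 0.12) and on THP1 arrays labelled GO (-0.31, SE 0.27) this probe was not called, so that for the smaller ID1 differences the 2 probes gave different calls.

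**Figure D1:**
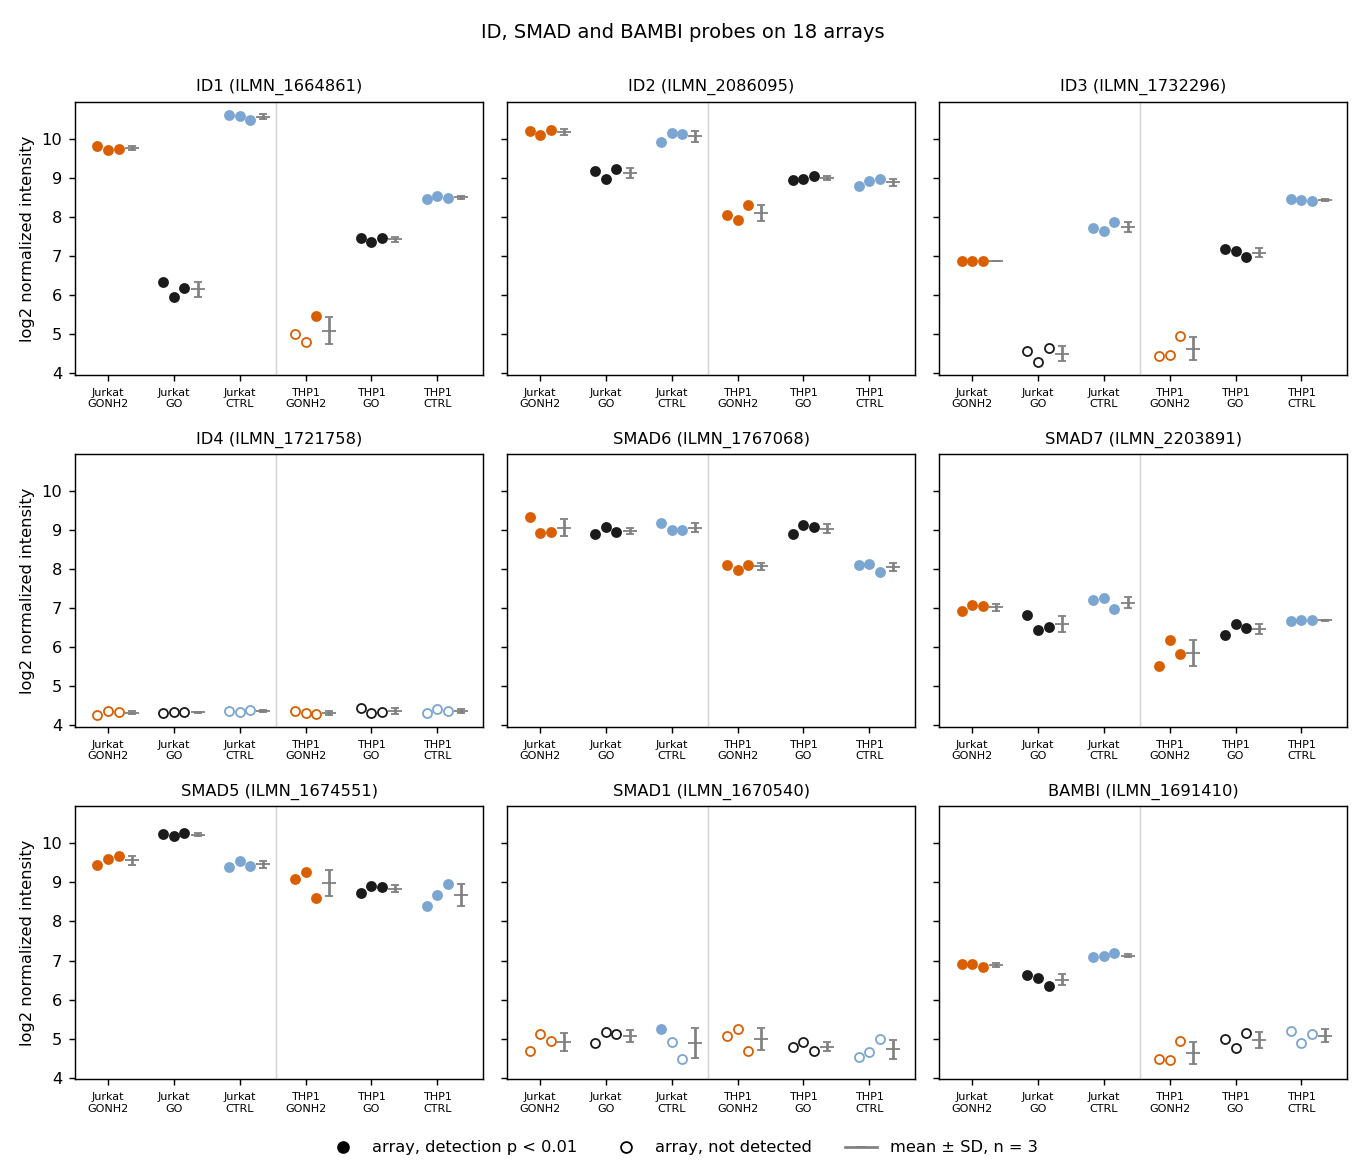
Log2 normalized intensity of 1 probe for each of the 9 genes on all 18 arrays, by line and treatment. Filled points are arrays on which the probe was detected, open points arrays on which it was not, and bars give the mean and SD of 3 arrays. ID1 and ID3 were lowest in Jurkat GO and on THP1 arrays labelled GONH2, ID4 was open on all arrays, and BAMBI was filled on Jurkat arrays only.

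ID3, on chromosome 1 (23557926 to 23559501, a span of 1576 bases), behaved as ID1 did within each line, with loss of detection where ID1 was lowest. The probe (ILMN_1732296) read 4.56, 4.29 and 4.65 on Jurkat GO arrays, with detection p-values of 0.37, 0.966 and 0.2, and was not detected on any of them. Jurkat CTRL arrays read 7.71, 7.64 and 7.87, and all were detected. ID3 was at least 5.32-fold lower after GO. After GONH2 the arrays read 6.88, 6.87 and 6.88, which is -0.86 (SE 0.09) relative to CTRL and at least 2.92-fold higher than after GO.

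ID3 was highest in untreated THP1 cells, at 8.47, 8.44 and 8.41. Arrays labelled GONH2 read 4.43, 4.47 and 4.96 and none detected the probe, a decrease of at least 8.53-fold. Arrays labelled GO read 7.18, 7.12 and 6.96, a difference of -1.35 (SE 0.10) from CTRL. ID3 on arrays labelled GONH2 was at least 3.34-fold lower than on arrays labelled GO. In the order of levels only the 2 undetected groups at the bottom, THP1 GONH2 and Jurkat GO, overlapped. Groups without overlap were common. Of all tested genes, 23.8% lay below CTRL in this way in Jurkat GO and 14.9% in Jurkat GONH2. On THP1 arrays it was 24.6% for those labelled GONH2 and 24.6% for those labelled GO. For GONH2 against GO, 22.6% lay higher in Jurkat and 27.4% lower in THP1 as labelled.

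**Figure D2:**
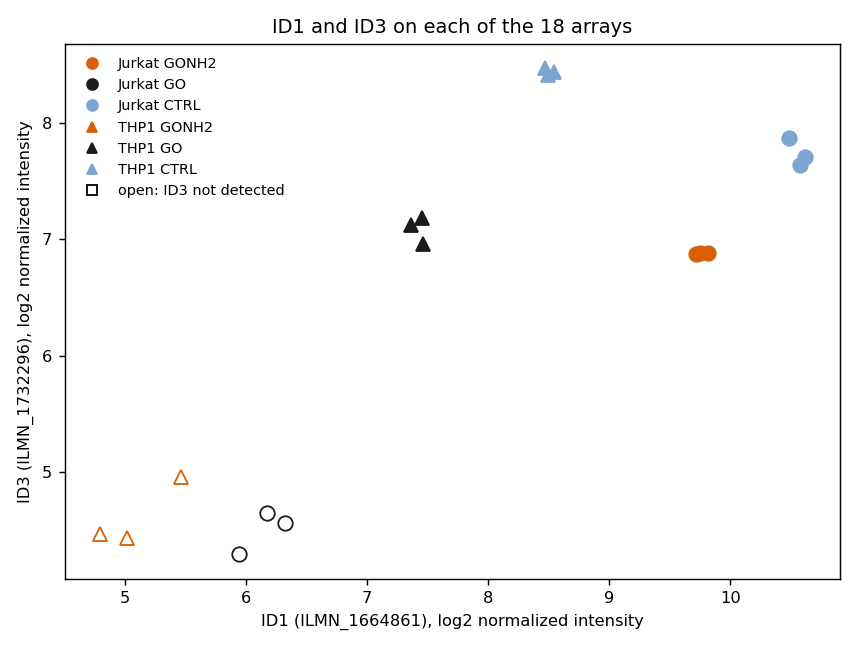
ID1 (horizontal axis) and ID3 (vertical axis), both as log2 normalized intensity, on each of the 18 arrays. Circles are Jurkat and triangles THP1 arrays, orange is GONH2, black GO and blue CTRL, and open symbols mark arrays without ID3 detection. The 3 arrays of each group lay together, and the Jurkat GO and THP1 GONH2 arrays shared the lower left corner, at up to 6.32 for ID1 and 4.96 for ID3.

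ID1 and ID3 correlated at r = 0.797 over the 18 arrays, as a description of arrays that share lines and treatments. Read within each probe, the untreated lines differed in opposite ways: ID1 was higher in untreated Jurkat (10.56 ± 0.06) than in untreated THP1 (8.50 ± 0.04), whereas ID3 was lower in untreated Jurkat (7.74 ± 0.12) than in untreated THP1 (8.44 ± 0.03, SD, n = 3 each). Outside the 9 genes, the 5 transcripts closest to ID1 among 11123 were TMEM243, MALSU1, PTPMT1, APOC1 and TYROBP, with r between 0.963 and 0.968. Those closest to ID3 were ATP23, TATDN1, DPH3, FSAF1 and UQCC5, with r between 0.970 and 0.975. These are correlations over the same 18 arrays and carry no p-value.

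ID2, on chromosome 2 (8682056 to 8684461), moved less than ID1 and ID3 and was detected on all 18 arrays by both of its probes. The brighter probe (ILMN_2086095) read 9.18, 8.97 and 9.23 on Jurkat GO arrays and 9.91, 10.14 and 10.13 on Jurkat CTRL arrays, a difference of -0.93 (SE 0.12). Jurkat GONH2 arrays, at 10.20, 10.09 and 10.23, overlapped CTRL (0.11, SE 0.10). The other probe (ILMN_1793990) gave -1.60 (SE 0.12) for GO and -0.34 (SE 0.10) for GONH2, the second without a call. The 2 probes agreed at r = 0.917.

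In THP1, ID2 was low on arrays labelled GONH2 only. These read 8.05, 7.92 and 8.31, against 8.79, 8.91 and 8.96 in CTRL, a difference of -0.79 (SE 0.14) that the other probe gave as -0.92 (SE 0.15). Arrays labelled GO, at 8.95, 8.98 and 9.04, overlapped CTRL and were not called with either probe (0.10, SE 0.10, and 0.16, SE 0.12). ID2 on arrays labelled GONH2 lay below arrays labelled GO by -0.89 (SE 0.13). The call against CTRL was lost in 4 of 6 fits that left out 1 array, without THP1_CTRL replicate 2 or 3 and without THP1_GONH2 replicate 1 or 2.

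ID4, on chromosome 6, was detected on 0 of 18 arrays with its 1 probe, whose values lay between 4.27 and 4.44. Differences between groups were within the background of the array and have no meaning as levels.

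The 3 detected ID genes are short, with spans of 1222, 2406 and 1576 bases, and short genes differed from longer ones in some comparisons. Among 801 tested genes with spans up to 3000 bases, the median log2 fold change after GO in Jurkat was -0.21 and 26.2% were called lower, against 0.13 and 9.98% among 10323 longer genes. On THP1 arrays labelled GONH2 the short genes had a median of -0.08 with 17.1% called lower, against 0.09 and 8.93% among longer genes. With GONH2 in Jurkat the short genes had a median of -0.05 with 1.12% called lower, against -0.01 and 0.310% among longer genes. For THP1 arrays labelled GO the median was -0.02 in both classes, with 5.62% of short and 4.67% of longer genes called lower. Called higher were 7.37% of short and 16.6% of longer genes for Jurkat GO, and 0.499% and 0.387% for Jurkat GONH2. On THP1 arrays these shares were 4.49% and 4.35% for those labelled GO, and 8.61% and 12.6% for those labelled GONH2. The limit of 3000 bases was chosen after the values had been seen, and the part of gene length in the ID values was not tested.

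SMAD6, on chromosome 15 (66702236 to 66782849), encodes the inhibitory SMAD that competes with SMAD1 and SMAD5 and is itself a BMP target. Over the 18 arrays, which share lines and treatments, it correlated with ID2 at r = 0.725, with ID1 at 0.445 and with ID3 at 0.0413. The probe (ILMN_1767068) was detected on all 18 arrays and read 9.33, 8.92 and 8.95 in Jurkat GONH2, 8.91, 9.07 and 8.95 in Jurkat GO and 9.19, 9.00 and 9.01 in Jurkat CTRL. These 3 groups overlapped, with differences from CTRL of 0.00 (SE 0.13) for GONH2 and -0.09 (SE 0.10) for GO. On THP1 arrays labelled GO it read 8.90, 9.12 and 9.07, all above the CTRL arrays at 8.10, 8.14 and 7.94, a difference of 0.97 (SE 0.11). In that comparison 21.1% of all tested genes lay above CTRL without overlap. Arrays labelled GONH2, at 8.12, 7.97 and 8.12, overlapped CTRL (0.01, SE 0.13) and lay -0.96 (SE 0.12) below arrays labelled GO. ID1 and ID3 were called lower against CTRL in both THP1 groups, and SMAD6 was called higher in 1 of them. Its call was lost when arrays were scaled to the median of all probes, with a difference of 0.64.

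SMAD7, on chromosome 18 (48919853 to 48950965), encodes the inhibitory SMAD that also restrains TGF-beta receptors. The brighter probe (ILMN_2203891) read 5.53, 6.19 and 5.83 on THP1 arrays labelled GONH2 and 6.67, 6.70 and 6.69 in THP1 CTRL, without overlap (-0.84, SE 0.17). Arrays labelled GO, at 6.32, 6.59 and 6.50, were not called (-0.22, SE 0.11). In Jurkat the GO arrays read 6.83, 6.45 and 6.52 and the CTRL arrays 7.21, 7.25 and 6.98, a difference of -0.54 (SE 0.13) without overlap and without a call. GONH2 gave -0.12 (SE 0.11). Of all tested genes, 23.8% lay below CTRL without overlap in Jurkat GO and 24.6% on THP1 arrays labelled GONH2. The second probe (ILMN_2203896) was not called in any of the 4 comparisons with CTRL, and its differences were 0.08 (SE 0.21) for GO and 0.53 (SE 0.13) for GONH2 in Jurkat, and -0.19 (SE 0.34) and -0.36 (SE 0.32) on THP1 arrays labelled GO and labelled GONH2. The 2 SMAD7 probes correlated at r = 0.539, so a SMAD7 value depends on the probe. The THP1 call was kept in 1 of 6 fits that left out 1 array, without THP1_GONH2 replicate 2, and was lost with the deposited normalized intensities (-0.36).

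SMAD5, on chromosome 5 (136132845 to 136182733), encodes a SMAD that carries the BMP signal itself, and it was the member called higher after GO in Jurkat. The brightest of its 3 probes (ILMN_1674551) read 10.23, 10.18 and 10.27 on GO arrays, against 9.40, 9.56 and 9.43 on CTRL arrays (0.76, SE 0.10). GONH2 arrays, at 9.45, 9.59 and 9.68, overlapped CTRL (0.11, SE 0.10) and lay -0.65 (SE 0.11) below GO. A second probe (ILMN_2371984) was detected on 3 GO arrays, 1 GONH2 array and no CTRL array, at least 1.58-fold higher after GO than in CTRL. Unprocessed signals of this probe were 143 ± 23.3 in GO and 140 ± 8.42 in CTRL (SD, n = 3). Its bound therefore depends on the background correction and normalization. The third probe (ILMN_1761994) was detected nowhere. In THP1 the 3 groups overlapped for the brightest probe, at 0.31 (SE 0.20) for arrays labelled GONH2 and 0.17 (SE 0.15) for arrays labelled GO. Scaled to the median of all probes, the Jurkat difference after GO was 0.44 and no longer called. The lower SMAD5 after GONH2 than after GO kept its call in 1 of 6 fits that left out 1 array, the fit without Jurkat_GONH2 replicate 3.

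SMAD1, on chromosome 4, has the same role as SMAD5. Its 2 probes were detected on 1 and on 0 of 18 arrays, the single detection being 1 Jurkat CTRL array at 5.25. SMAD9, the remaining BMP-activated SMAD gene and no member of the set, was detected on 3 of 3 arrays of every group and was called in none of the 6 comparisons.

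BAMBI, on chromosome 10 (28677521 to 28682932), was detected on all 9 Jurkat arrays and on no THP1 array. Its probe (ILMN_1691410) read 6.90, 6.92 and 6.84 in Jurkat GONH2, 6.63, 6.54 and 6.36 in Jurkat GO and 7.09, 7.11 and 7.18 in Jurkat CTRL. The 3 groups did not overlap, as was common: 23.8% of all tested genes lay below CTRL without overlap in Jurkat GO and 14.9% in Jurkat GONH2. The difference after GO was -0.62 (SE 0.11) and that after GONH2 -0.24 (SE 0.08), of which the first was called. That call was kept in 1 of 6 fits that left out 1 array, the fit without Jurkat_GO replicate 1. In THP1, values between 4.46 and 5.20 were within background, and no change is given.

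**Figure D3:**
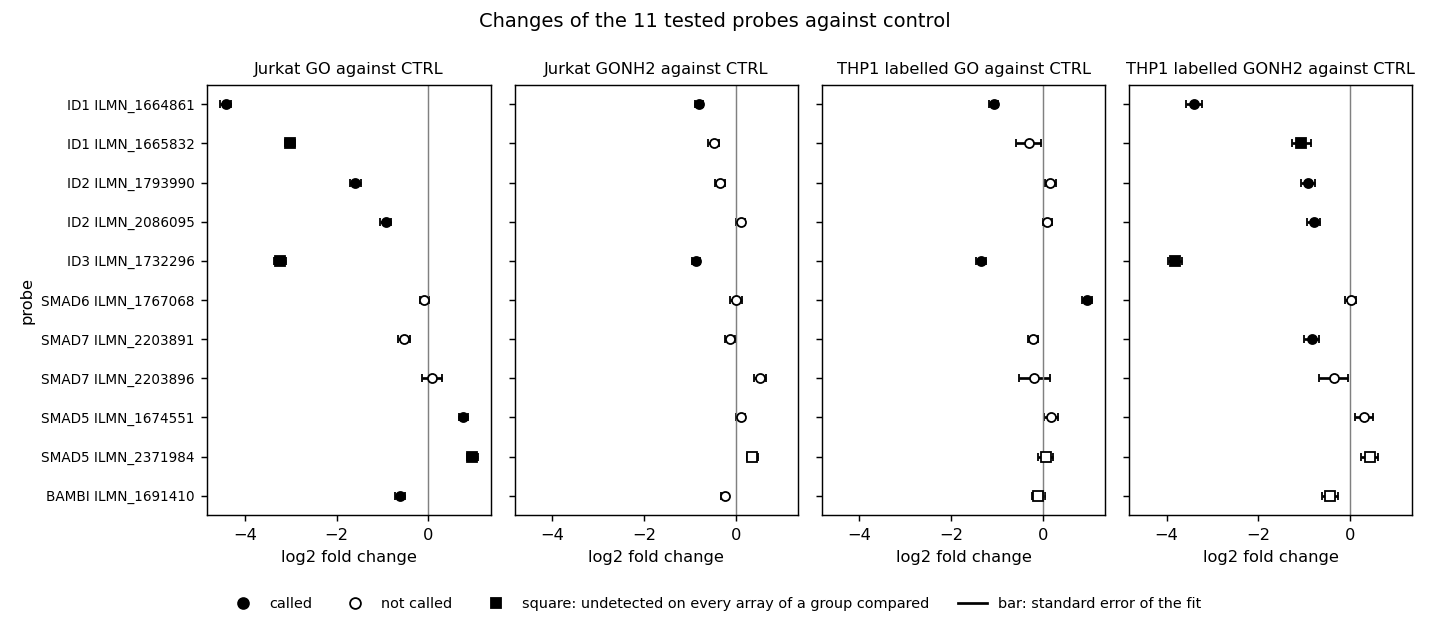
Log2 fold change (horizontal axis) of the 11 tested probes in the 4 comparisons with CTRL, with the standard error of the fit. Filled symbols were called, and squares mark probes not detected on any array of at least 1 group compared, whose fold change is no measure of size. The brighter ID1 probe (ILMN_1664861) lay at -4.42, -0.80, -1.07 and -3.41 in the 4 panels. The second ID1 probe (ILMN_1665832) was called only for Jurkat GO and THP1 labelled GONH2. SMAD6 lay at 0.97 on THP1 arrays labelled GO.

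Counted by each gene's brightest probe, 5 of the 7 tested members were called after GO in Jurkat, SMAD5 higher and ID1, ID2, ID3 and BAMBI lower. Of all 11130 genes tested, 27.1% were called in that comparison, 15.9% higher and 11.1% lower. After GONH2 in Jurkat 2 were called, ID1 and ID3, both lower, against 0.764% of all genes (0.395% higher, 0.368% lower). Both calls were lost in every one of the 6 fits that left out 1 array. Those fits called 2 to 4 of all 19455 tested probes, against 158 with all 6 arrays, so the loss was not particular to these genes. The THP1 arrays labelled GONH2 had 4 calls, ID1, ID2, ID3 and SMAD7, all lower, against 21.9% of all genes (12.4% higher, 9.51% lower). The arrays labelled GO had 3 calls, SMAD6 higher and ID1 and ID3 lower, against 9.09% of all genes (4.36% higher, 4.73% lower). The median log2 fold change of the 7 members was -0.62, -0.12, -0.79 and -0.10 in these 4 comparisons, in the order given, and that of all tested genes 0.11, -0.02, 0.08 and -0.02. Between the materials, GONH2 against GO gave 4 calls in Jurkat (ID1, ID2 and ID3 higher, SMAD5 lower) with 25.8% of all genes called (10.1% higher, 15.7% lower), and 4 in THP1 as labelled (ID1, ID2, ID3 and SMAD6, all lower) with 30.0% of all genes called (17.9% higher, 12.2% lower). The comparisons with CTRL share the CTRL arrays of their line. Because the members were chosen with these values in view, nothing is read from the counts.

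The response of the lines was compared by the difference of their log2 fold changes (interaction term, 12 arrays, Jurkat minus THP1, groups as labelled). For GO, 4 members were called with 26.5% of all genes (15.4% positive, 11.1% negative), all with a negative difference. For GONH2, 3 members were called with 20.8% of all genes (8.35% positive, 12.5% negative), all with a positive one. For GO, ID1 changed by -4.42 in Jurkat and -1.07 in THP1, a difference of -3.35 (SE 0.15). For GONH2 it changed by -0.80 in Jurkat and -3.41 in THP1, a difference of 2.61 (SE 0.20) with the sign turned, whose size rests on the THP1 arrays at the edge of background. The second probes gave -2.70 (ID1) and -1.76 (ID2) for GO, both called, and 0.58 (ID1) and 0.59 (ID2) for GONH2, neither called. The turn depends on the THP1 labels, since -3.41 would stand beside -4.42, and -1.07 beside -0.80, if they were exchanged.

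Genes around the ID and SMAD members were taken from 7 lists, written with earlier results known. The lists held 150 ligands, receptors, SMADs, antagonists, regulators, targets and helix-loop-helix factors, of which 87 were tested. Genes named from a list were called ones with its largest changes, so their adjusted p-values were low by choice and give no support. After GO in Jurkat, 18 of the 87 were called higher and 2 lower, with a median log2 fold change of 0.29, against 15.9% higher, 11.1% lower and a median of 0.11 over all genes. Of 8 ligands tested, GDF11 (0.84, SE 0.10, limma adjusted p = 0.000389) and BMP8B (0.74, SE 0.11) rose. BMP8B is nearly identical to BMP8A, and a probe may bind both. Of 10 receptors, 4 rose, among them the type I receptors ACVRL1 (1.03, SE 0.11, limma adjusted p = 0.000209) and ACVR1 (0.68, SE 0.11) and the co-receptor gene ENG (0.61, SE 0.10). SMAD3, which carries TGF-beta signals, rose by 0.70 (SE 0.12), and LTBP4, which binds latent TGF-beta, by 1.15 (SE 0.22). Among 20 intracellular regulators, HIPK2 (1.46, SE 0.19, detected on 1 of 3 CTRL arrays) and PPP1R15A (0.64, SE 0.10) rose and EID2, a binder of SMADs, fell (-0.68, SE 0.12). Other genes that respond to BMP or TGF-beta moved both ways: TGFB1I1 (1.93, SE 0.12, limma adjusted p = 2.13e-05) and the cell cycle inhibitor gene CDKN1A (1.26, SE 0.11) rose, and GADD45B fell (-1.06, SE 0.13). Among 24 E proteins and other helix-loop-helix factors 4 rose and none fell, led by MXD4 (1.10, SE 0.11), LYL1 (0.90, SE 0.12) and TFE3 (0.88, SE 0.11).

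After GONH2 in Jurkat, limma called 0 of the 87 listed genes, against 0.764% of all genes. Limma-trend called 5 of them and the fit of all 18 arrays 1. Over all 19455 tested probes these 2 fits called 848 and 259, against 158 in the main fit. At an unadjusted limma p under 0.05 there were 22 listed genes. The share of all genes at that threshold was not counted, so nothing is read from the 22. On THP1 arrays labelled GO, 8 of 87 rose and 4 fell, with a median of 0.01, against 4.36% higher, 4.73% lower and a median of -0.02 over all genes. SMAD3 (1.32, SE 0.14, limma adjusted p = 0.00182), RUNX2 (1.59, SE 0.27), a target in bone that was detected on 2 of 3 CTRL arrays, VEGFA (1.01, SE 0.10) and BHLHE40 (1.11, SE 0.14) rose, with SMURF1 (0.74, SE 0.14, detected on 2 of 3 CTRL arrays), a ubiquitin ligase for SMAD1 and SMAD5, PPP1R15A (0.68, SE 0.12), LYL1 (0.80, SE 0.11) and BMP8B (0.61, SE 0.11). NBL1, an extracellular BMP antagonist, fell (-1.25, SE 0.16), as did the E protein gene TCF3 (-0.76, SE 0.13), the activin subunit gene INHBE (-0.64, SE 0.13) and ZEB2 (-0.54, SE 0.11). None of the 10 receptors was called there.

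The THP1 arrays labelled GONH2 had 11 of 87 listed genes higher and 2 lower, with a median log2 fold change of 0.28, against 12.4% higher, 9.51% lower and a median of 0.08 over all genes. ENG (1.05, SE 0.17) was the 1 receptor gene called, and SMAD3 rose by 0.84 (SE 0.13) and LTBP4 by 1.25 (SE 0.13, limma adjusted p = 0.000323). BMP8B (1.02, SE 0.14) and BMP8A (0.75, SE 0.13) rose and INHBE fell (-1.29, SE 0.13, limma adjusted p = 0.000279). CDKN1A (1.29, SE 0.12), TGFB1I1 (1.11, SE 0.14) and RUNX3 (1.04, SE 0.20) rose among targets, and MXD4 (1.05, SE 0.17) and LYL1 (1.04, SE 0.13) among helix-loop-helix factors. None of the 20 intracellular regulators was called.

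**Figure D4:**
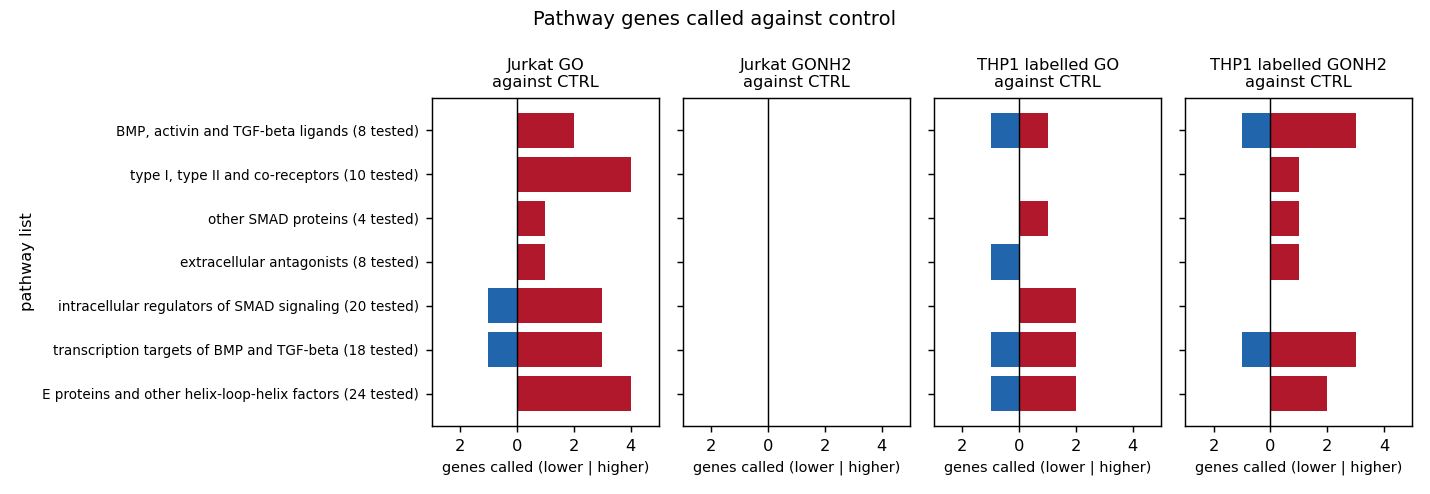
Number of genes called lower (blue, to the left) and higher (red, to the right) in each of 7 pathway lists, for the 4 comparisons with CTRL. The number of tested genes stands behind each list's name. Over the 87 listed genes the counts were 18 higher and 2 lower for Jurkat GO, 0 for Jurkat GONH2, 8 and 4 for THP1 arrays labelled GO, and 11 and 2 for those labelled GONH2.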

How the data were processed

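Groups came from the labels. The deposited table used here holds linear probe intensities that were not normalized. The authors exported them from GenomeStudio V2011.1 (with V1.9.0 of its expression module). The same deposited table holds a detection p-value beside each intensity. A second deposited table holds intensities normalized by the authors, by a method not given in the sources used here. Signals were processed with limma 3.58.1 in R 4.3.3 (neqc, offset 16, quantile normalization over 18 arrays, log2). The test covered 19455 of 47217 probes, those with detection p under 0.01 on 3 or more arrays. Of all probes, 30106 carried 1 gene symbol of the platform annotation, 8 several and 17103 none. A gene was represented by its brightest probe, judged over all 18 arrays.

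Each 2-group limma fit used 6 arrays, with calls at p under 0.001 and a Benjamini-Hochberg adjusted p under 0.05. The p-values and SEs cover only the spread between arrays, 3 a group, moderated by limma over all tested probes. The number of arrays limits the precision. The members, the pathway lists and the alternatives were chosen with earlier results of these data known. Named were all probes of the members, up to 3 called genes per list and comparison with a control, and the 5 genes most like ID1 and ID3. Alternatives were an offset of 50, uncorrected background, the deposited normalized values, 2 median scalings, separate normalization of the lines, no filter, detection on all arrays, an 18-array fit, a replicate block, limma-trend and leaving out each array. The calling was tested on simulated data. Probe sequences and positions were not used here.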

Additional observations from a re-analysis of the deposited data

Results flagged for a closer look

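Several members were called by the interaction term between the lines, groups as labelled. Of all tested genes, 26.5% were called in this way for GO and 20.8% for GONH2. The members were chosen with these values in view, so the differences are a description and give no support. For GO the difference of log2 fold changes, Jurkat minus THP1, was -3.35 for ID1, -1.03 for ID2, -1.89 for ID3 and -1.06 for SMAD6. For GONH2 it was 2.61 for ID1, 0.90 for ID2 and 2.96 for ID3. The second probes of ID1 and ID2 gave 0.58 and 0.59 for GONH2 and were not called. ID3 was not detected in Jurkat GO or on THP1 arrays labelled GONH2, so its 2 differences carry no size, and ID1 was detected on 1 of 3 THP1 arrays labelled GONH2, so the size of its 2.61 depends on the background correction. All 7 differences rest on the THP1 labels as given, and exchanging the labels would change them.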

How the results depend on the processing

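With only the probes detected on all arrays, which removes ID1, ID3 and BAMBI from the test, the calls numbered 2 of 5 for GO against CTRL in Jurkat, 0 of 2 for GONH2, 1 of 3 on THP1 arrays labelled GO and 2 of 4 on those labelled GONH2, and 2 of 4 for GONH2 against GO in each line. Scaling to the median of all probes left 2 of 4 calls (ID1 and ID3) for the response to GO in Jurkat against THP1. That scaling moved the median of all tested probes to -0.13 for Jurkat GO, -0.23 for THP1 labelled GO and -0.19 for THP1 labelled GONH2, against 0.06, 0.00 and 0.05. Leaving out 1 array gave 4 to 5 calls for Jurkat GO, 0 to 0 for Jurkat GONH2, 3 to 3 and 2 to 3 for THP1 labelled GO and GONH2, 3 to 4 and 4 to 4 for GONH2 against GO in Jurkat and THP1, and 4 to 5 and 3 to 4 for the 2 differences between lines. A replicate block left 0 of 2 calls for Jurkat GONH2, where it called 2 of all 19455 tested probes, against 158 without it. The block also removed BAMBI after GO and SMAD5 for GONH2 against GO. Deviations of arrays with the same number correlated between -0.0657 and 0.158, and the numbers were not read as pairs. For Jurkat GONH2 and THP1 labelled GO, however, each treated array correlated best with the CTRL array of its own number. With the block, 1032 probes were called for THP1 labelled GO, against 1543 without it. Whether the arrays were paired was not settled. Of the fold changes of single probes under the alternatives, 969 moved by less than 1 SD, 117 by more, and no called one changed sign. For dim probes the size depends on the background: with the deposited normalized intensities ID1 gave -3.26 for Jurkat GO and -1.79 for THP1 labelled GONH2. The 18-array fit called 19 listed pathway genes on THP1 arrays labelled GO, against 12, and 24 on those labelled GONH2, against 13. The replicate block called 6 against 12 on arrays labelled GO. Over all 19455 tested probes the 18-array fit called 2507 against 1543 and 5908 against 3866, and the block 1032 against 1543. Calls thus rose and fell over all probes as well.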

Other observations

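For GONH2 against GO, 1 of the 87 listed pathway genes was called higher and 18 lower in Jurkat, where 10.1% of all genes were called higher and 15.7% lower. In THP1 as labelled, 16 were called higher and 5 lower, where 17.9% of all genes were called higher and 12.2% lower. All genes thus leaned the same ways as the listed ones, and nothing particular to the lists is read from the counts. TCF3, the E protein gene whose product ID proteins bind, was -0.64 (SE 0.12, limma adjusted p = 0.003) in Jurkat and 1.22 (SE 0.12, limma adjusted p = 0.000147) in THP1, and TGFB1I1 was -2.16 (SE 0.12) and 1.06 (SE 0.16). TCF12, another E protein gene, was called in THP1 (-0.83, SE 0.12). These 3 genes were chosen after their values had been seen, so the adjusted p-values give no support. The difference between the lines was not tested for GONH2 against GO.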
